A study of Mus musculus with 2 samples.

Results

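H/ACA small nucleolar RNAs (Snora genes) and small Cajal body RNAs (Scarna genes) were examined as the short fragments they leave in 2 small RNA libraries of mouse dendritic cells. Members were the listed sequences that match, without a mismatch and on the sense strand, a GENCODE vM21 transcript named Snora or Scarna followed by a number. The gene Snora36b was left out. The rule took 685 of 538100 listed sequences, and they belong to 48 gene names, 39 Snora and 9 Scarna. Of these, 47 had at least 1 read, and Snora35 had none. The 48 names cover 50 gene identifiers, as Snora16a and Snora43 each have a pair of overlapping entries that were counted once.

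Both libraries came from bone marrow cells of C57BL/6 mice that had been cultured for 7 days in medium with GM-CSF and IL-4, cytokines that drive precursors towards dendritic cells, and then stimulated with LPS. The nuclear library was made from the pellet that held the nuclei after lysis in a buffer with NP40, and the cytoplasmic library from the fraction left in solution. The comparison addresses which small RNAs are enriched in nuclei of these innate immune cells. There was 1 library of each, both were LPS-stimulated, no unstimulated cells are analysed here, and the sources used here give no dose or duration of LPS, no number of mice and no pooling. The nuclear library listed 2000019 reads and the cytoplasmic library 2041383 reads, so 1 read was worth 0.5 and 0.49 RPM, the unit in which reads are scaled to a common library total.

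With 1 library a fraction, no difference has a replicate check and no p-value is given. Ratios are nuclear over cytoplasmic RPM with exact (Clopper-Pearson) 95% intervals, which cover counting error alone, as reads were amplified by PCR and carry no molecular identifiers. RPM is a share of a library, so more of a fragment and less of the other RNAs in a fraction cannot be told apart. As a check on the fractions, fragments of the nuclear RNAs Malat1, Neat1, Rnu7 and Rnu3b1 were enriched 6.04-fold to 20.1-fold in the nuclear library, and those of the mitochondrial ribosomal RNAs mt-Rnr1 and mt-Rnr2 had ratios of 0.804 and 0.938. No read carried the name Rnu6.

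H/ACA RNAs fold into a pair of hairpins joined by a hinge that holds the H box and closed by a tail that holds the ACA box. Each hairpin can carry a pocket that pairs with a target RNA and places a uridine for conversion to pseudouridine by dyskerin, which works with Gar1, Nhp2 and Nop10. Snora RNAs do this for ribosomal RNA in the nucleolus, and small Cajal body RNAs (scaRNAs) guide the modification of spliceosomal RNAs in Cajal bodies. Most are cut from introns of host genes, and trimming of the intron stops at the protein-bound ends. The listed sequences are 18 to 39 nt long and the annotated genes 70 to 414 nt, so all levels below are levels of fragments and not of the full-length RNAs.

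The boxes were looked for in the annotated transcripts, on the sense strand. An ACA that leaves exactly 3 bases to the 3′ end was present in 32 of 39 Snora genes (82.1%), in 2 of 9 Scarna genes (22.2%), in 0 of 99 Snord transcripts, the C/D box snoRNAs, and in 308 of 6154 other transcripts of 100 to 250 nt (5.0%). The H box letters ANANNA in the middle of the transcript (35 to 65% of its length) were present in 36 of 39 Snora genes (92.3%), 6 of 9 Scarna genes (66.7%), 50 of 99 Snord transcripts (50.5%) and 3930 of the 6154 other transcripts (63.9%). The ACA position therefore set the Snora genes apart from the other transcripts more than the H box letters did. A match is a description of letters and not a mapped site.

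The most abundant fragment of the leading genes shows where on the RNA the reads come from. In these fragments, each at the 3′ end of its gene, capitals mark the ACA box that lies 3 bases before the annotated end.
Snora16a: tgcaacattgtggaaaatgACAgct
Snora24: tctgacttgagcaagtgACAttc
Snora61: agcagcaggccagactcagACAtgc
Snora57: tatcctcagacgccggaACAct
Snora21: cttcaatcggtgttgtgACAag
Snora20: tgtctctcgtacatggtctagACAttg
The Snora16a fragment covered nt 112 to 136 of 136 and had 996 nuclear and 9 cytoplasmic reads. The Snora24 fragment had 269 and 30 reads, and the Snora61 fragment 318 and 3. The Snora57, Snora21 and Snora20 fragments had 21 and 1, 65 and 1, and 15 and 0 reads. Those of Snora57 and Snora21 stopped 1 base short of the annotated end.

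The leading fragment of the following genes lay at an end without an ACA box, and all letters are therefore in lower case. Those of Snora81 and Scarna10 are from the 3′ end, where the annotated transcript has no ACA at the usual place, and the other fragments are from the 5′ end.
Scarna3a: atggaagctgcggagtcaac
Scarna3b: ctggaagctgcaaaaccaa
Snora7a: gacctcttgggatcgcgtctgga
Snora73a: ccgacgtggatatcccggg
Snora81: gtcataagattcggtgcaataagt
Scarna10: atctttggtaatctgatggct
Scarna3a and Scarna3b had 227 and 141 nuclear reads of these sequences, against 10 and 7 cytoplasmic reads. Snora7a had 126 and 3 reads, Snora73a 40 and 0, Snora81 107 and 0, and Scarna10 18 and 0.

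The whole sequences of 3 genes show how the fragments sit on the RNA, with the leading end fragment and, for Scarna3a and Snora57, the leading internal fragment in capitals. They are from GRCm38, chr4:132309465-132309600 on the plus strand (Snora16a), chr1:159340283-159340422 on the plus strand (Scarna3a) and chr19:8888538-8888685 on the minus strand (Snora57).
Snora16a: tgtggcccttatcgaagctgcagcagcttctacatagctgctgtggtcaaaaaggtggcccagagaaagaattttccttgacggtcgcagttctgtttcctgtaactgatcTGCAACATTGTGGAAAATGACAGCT
Scarna3a: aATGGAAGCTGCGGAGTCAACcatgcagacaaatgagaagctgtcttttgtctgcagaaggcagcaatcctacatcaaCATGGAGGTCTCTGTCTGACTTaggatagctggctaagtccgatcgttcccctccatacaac
Snora57: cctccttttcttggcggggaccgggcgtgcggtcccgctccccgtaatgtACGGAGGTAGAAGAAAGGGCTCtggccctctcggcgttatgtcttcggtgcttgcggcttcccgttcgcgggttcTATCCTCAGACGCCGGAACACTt

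Fragments of the 39 Snora genes summed to 4811 nuclear reads (2405 RPM) and 314 cytoplasmic reads (154 RPM), a nuclear excess of 15.6-fold (13.9 to 17.6). Fragments of the 9 Scarna genes summed to 1447 reads (723 RPM) and 119 reads (58.3 RPM), 12.4-fold higher (10.3 to 15.1). The intervals of these ratios overlapped. Without Snora16a the Snora ratio was 11.4, and without Snora57 it was 18.8. The Scarna sum was mostly that of Scarna3a and Scarna3b, whose joint ratio was 10.9 (9.0 to 13.4). The other 7 Scarna genes had 238 nuclear and 6 cytoplasmic reads, a ratio of 40.5 (18.3 to 111) whose interval lay above that of the pair. The members held 0.313% of the nuclear library and 0.0212% of the cytoplasmic library. The C/D box snoRNAs, measured the same way, had a ratio of 47.2 (45.4 to 49.2) over 77 Snord genes with reads, above both member sums. Snord14c was the most abundant of these genes, and no summed ratio without it was computed.

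A gene was called higher or lower where the log2 ratio (with 0.5 reads added to each library, which pulls genes with few reads towards 0) was past 2-fold and the interval excluded 1, with at least 50 reads over both libraries. Of the 14 members with that many reads, 14 were called higher and 0 lower in the nuclear library, against 41.4% higher and 10.9% lower of all 920 small RNA entries measured. The median log2 ratio was 4.50 over these members (1.31 to 7.21) and 0.63 over all entries. Over 50 Snord genes it was 5.01, over the 11 Snora genes among these members 4.63 and over 215 miRNA arms -0.60. A member could reach 50 reads on its nuclear reads alone, so the 33 members with 1 to 49 reads are given too. Of these, 31 had more nuclear than cytoplasmic reads, Snora9 had 2 of each and Snora2b had 1 cytoplasmic read only. Together they had 615 nuclear and 58 cytoplasmic reads, a ratio of 10.8 (8.26 to 14.4). The 5 members with most nuclear reads held 69.3% of the nuclear reads of all members, and Snora16a alone 25.7%.

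**Figure D1:**
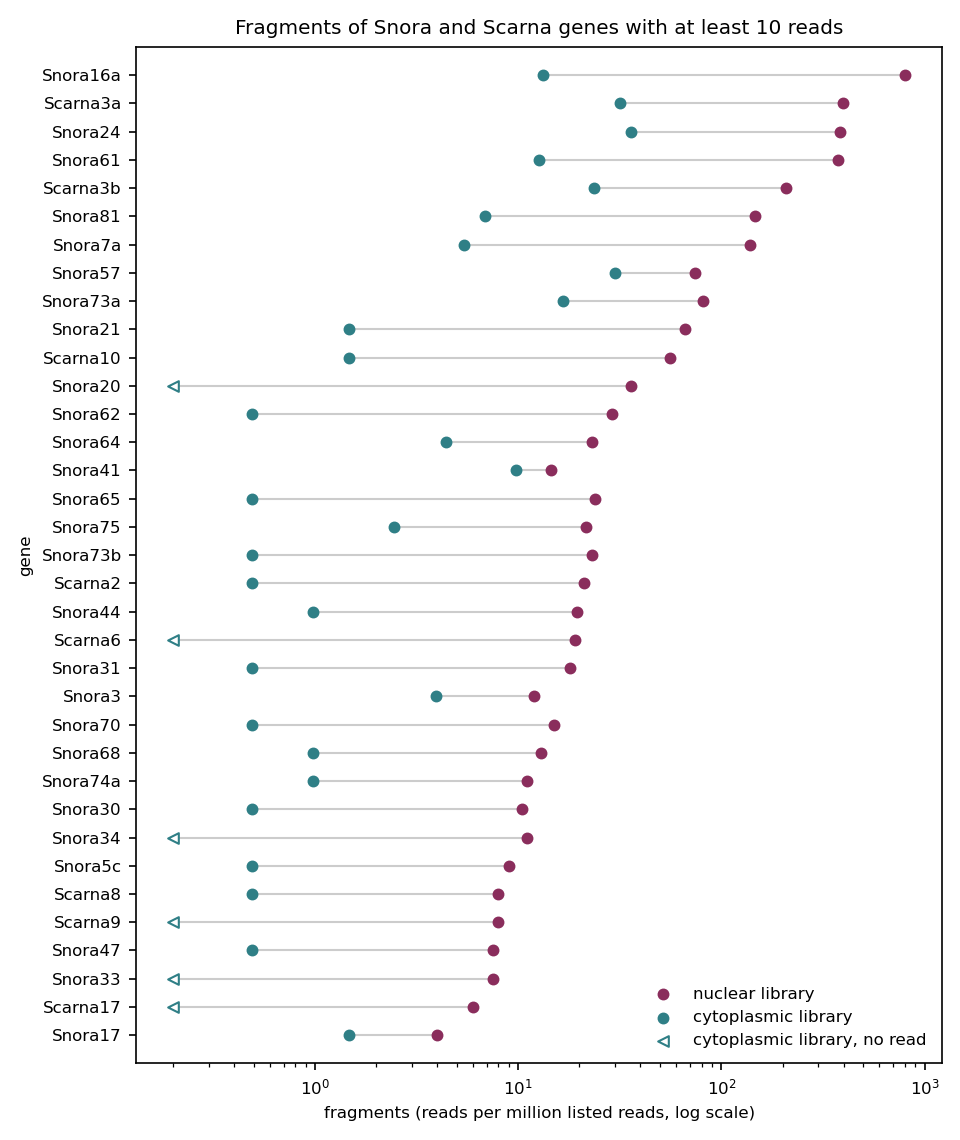
Level of the fragments of each Snora and Scarna gene with at least 10 reads over both libraries, in RPM on a log axis, nuclear (purple) and cytoplasmic (teal), with an open triangle where the cytoplasmic library had no read. Each point is 1 library; the nuclear point lies to the right for all 35 genes, and the distance runs from 1.48-fold for Snora41 to 60.9-fold for Snora16a among genes with more than 3 cytoplasmic reads.

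Snora16a, Snora61 and Snora44 share a host, the non-coding gene Snhg12 on chromosome 4, and lie inside exons of annotated Snhg12 transcripts. Snora16a had 1610 nuclear and 27 cytoplasmic reads (805 and 13.2 RPM), a ratio of 60.9 (41.7 to 92.6). Snora61 (chr4:132310240-132310369) had 752 and 26 reads (376 and 12.7 RPM), a ratio of 29.5 (20.0 to 45.5). Snora44 (chr4:132309941-132310069), between them, had 39 and 2 reads, a ratio of 19.9 (5.15 to 170). All 3 were higher in the nuclear library, while their summed fragments ranged from 41 to 1637 reads over both libraries. Their intervals overlapped, those of Snora16a and Snora61 only narrowly, and such overlap is not a test of a difference. Snhg12 outside its small RNAs had 11 nuclear reads and no cytoplasmic read.

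Snora24, which guides pseudouridylation of small subunit ribosomal RNA, lies inside an exon of the non-coding host Snhg8 at chr3:123507937-123508066, minus strand. It had 767 nuclear and 73 cytoplasmic reads (383 and 35.8 RPM), a ratio of 10.7 (8.43 to 13.8). Its interval lay below that of Snora16a. It had more cytoplasmic and fewer nuclear reads than Snora16a, from a gene of nearly the same length. Snhg8 outside its small RNAs had 26 nuclear reads and 1 cytoplasmic read.

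Snora81, Snora7a, Snora21, Snora20, Snora62 and Snora64 lie in protein-coding hosts of translation and protein folding. Snora81 (chr16:23110756-23110933, plus strand, in Eif4a2, a translation initiation helicase) had 295 and 14 reads (147 and 6.86 RPM), a ratio of 21.5 (12.6 to 39.8). Of these reads 295 and 13 also match another annotated small RNA gene, so the locus they come from is uncertain. Snora7a (chr6:115807975-115808114, minus strand, in the ribosomal protein gene Rpl32) had 278 and 11 reads (139 and 5.39 RPM), a ratio of 25.8 (14.2 to 52.3). Snora21 (chr11:97781639-97781775, minus strand, within an Rpl23 intron, another ribosomal protein gene) had 133 and 3 reads (66.5 and 1.47 RPM), a ratio of 45.3 (15.2 to 222). Of its reads 120 and 1 also match another annotated small RNA gene.

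Snora20 (chr17:12922790-12922917, plus strand, in an intron of the chaperonin gene Tcp1) had 72 reads (36 RPM) in the nuclear library and 0 in the cytoplasmic one. Set against a floor of 3 cytoplasmic reads, the most that a count of 0 allows, its ratio was 24.5, with a lower interval bound of 8.05. Snora62 (chr9:120130415-120130563, plus strand, in an intron of Rpsa) had 58 and 1 reads (29.0 and 0.49 RPM), a ratio of 59.2 (10.2 to 2378). Snora64 (chr17:24720772-24720905, plus strand, in Rps2) had 46 and 9 reads (23 and 4.41 RPM), a ratio of 5.22 (2.52 to 12.1). With so few cytoplasmic reads, the upper bounds of Snora21 and Snora62 carry little information.

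Of the hosts, counted outside their small RNAs, 6 protein-coding hosts of Snora genes had ratios below those of their snoRNAs. Rpl32 had 18 nuclear and 21 cytoplasmic reads, Rpl23 17 and 14, Rpsa 50 and 53, and Rps2 29 and 22, and all 4 intervals of the ratio held 1. Tcp1 had 49 and 31 reads, a ratio of 1.61 (1.01 to 2.62), and Eif4a2 85 and 37, a ratio of 2.34 (1.58 to 3.55). For these 6 hosts the interval of the ratio lay below that of the snoRNA they carry, with Snora20 taken at the floor. Cop1, Ncapd2 and Snhg8 were themselves higher in the nuclear library, with intervals that overlapped those of their members. Cop1, the host of Scarna3a, had 35 and 5 reads, a ratio of 7.14 (2.79 to 23.4), and Ncapd2, the host of Scarna10, had 13 and 1, a ratio of 13.3 (1.99 to 564). Snhg8 had a ratio of 26.5 (4.36 to 1088), beside 10.7 for Snora24. Dcaf5, the host of Scarna3b, had 2 and 5 reads, a ratio of 0.408 (0.0389 to 2.49), below the interval of Scarna3b (6.58 to 12.2). Rcc1 and Snhg3, the hosts of Snora73a, had 0 and 1 and 2 and 0 reads. Dcaf5, Rcc1 and Snhg3 were called neither higher nor lower, on few reads.

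Snora57, Snora73a and Snora64 had the smallest ratios of the members with at least 50 reads. Snora57, for which no host gene was annotated, had 149 nuclear and 61 cytoplasmic reads (74.5 and 29.9 RPM), a ratio of 2.49 (1.84 to 3.42). Of these reads 146 and 60 also match another annotated small RNA gene. With TMM factors its log2 ratio was 0.83 and with the median of ratios 0.73, under which it was no longer past 2-fold. The ratio of no other member with at least 50 reads changed its call with the scaling.

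Snora73a and Snora73b encode U17, an H/ACA RNA that acts in cleavage of the ribosomal RNA precursor rather than as a guide of pseudouridylation. They lie at chr4:132352775-132352979 and chr4:132352322-132352526 on the minus strand, within Rcc1 and Snhg3, and 198 of their 205 aligned bases are identical (96.6%). Snora73a had 162 and 34 reads (81.0 and 16.7 RPM), a ratio of 4.86 (3.34 to 7.26), and these include the sequences that both genes hold, with 18 and 32 reads. Snora73b had 46 and 1 reads of its own (23 and 0.49 RPM), a ratio of 47.0 (8.02 to 1894). Of the 35 cytoplasmic reads of the pair, 32 were thus in sequences common to both copies, and the pair together had a ratio of 6.07 (4.22 to 8.95).

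Among scaRNAs the H/ACA type, 4 genes led by Scarna3a and Scarna3b, summed to 1227 nuclear and 115 cytoplasmic reads, a ratio of 10.9 (8.99 to 13.3). Scarna3a, in an intron of the ubiquitin ligase gene Cop1, had 791 and 65 reads (395 and 31.8 RPM), a ratio of 12.4 (9.64 to 16.3). Scarna3b (chr12:80391613-80391751, minus strand, in an intron of Dcaf5) had 418 and 48 reads (209 and 23.5 RPM), a ratio of 8.89 (6.58 to 12.2). The 2 copies share 120 of 140 aligned positions (85.7%), and their ratios did not differ beyond counting error. Scarna8 had 16 and 1 reads.

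The C/D type, Scarna2, Scarna9 and Scarna17, had 70 nuclear reads and 1 cytoplasmic read together, a ratio of 71.4 (12.4 to 2862). Scarna2 held 42 and 1 of these reads, Scarna9 16 and 0 and Scarna17 12 and 0. The 12 reads of Scarna17 also match another small RNA gene. The genes that join both kinds of domain, Scarna10 and Scarna6, had 150 and 3 reads, a ratio of 51 (17.1 to 250). Scarna10 (chr6:125186359-125186683, minus strand, in the condensin gene Ncapd2) had 112 and 3 reads (56 and 1.47 RPM), a ratio of 38.1 (12.7 to 188). Scarna6 had 38 and 0 reads, a ratio of 12.9 at the floor of 3 reads, with a lower interval bound of 4.10. The intervals of these small groups are wide. That of the mixed group lay above that of the H/ACA type, and that of the C/D type overlapped it.

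By reads, nuclear Snora fragments came mostly from the 3′ end. Many of these reads belong to Snora16a, Snora24 and Snora61, which lie inside exons of host transcripts. A fragment was placed at the 3′ end where it stopped within 2 nt of the annotated end, at the 5′ end where it began within 2 nt of the annotated start, and was internal otherwise. Of the nuclear Snora reads 78.8% were at the 3′ end, 12.2% at the 5′ end and 8.94% internal. Of the cytoplasmic Snora reads 42.4% were at the 3′ end, 4.46% at the 5′ end and 53.2% internal. Over all members the nuclear share at the 3′ end was 61.8%. It was 31.4% over distinct sequences and 7.99% over sequences with no match to any other gene, which leaves out sequences of Snora16a, Snora24 and Snora61 because they match their hosts. Sequences of Scarna3a and Scarna3b, with 97.4% of nuclear reads at the 5′ end, stay in. The share with no match to any other gene was not computed for Snora genes alone. With no match to another small RNA gene the share over all members was 62.3%. By reads, the libraries differed in which part of the RNA they held as well as in the level.

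Each position had its own ratio. Snora fragments of the 3′ end had 3793 nuclear and 133 cytoplasmic reads, a ratio of 29.1 (24.5 to 34.9). Those of the 5′ end had 588 and 14 reads, a ratio of 42.9 (25.3 to 78.9). Internal fragments had 430 and 167 reads, a ratio of 2.63 (2.19 to 3.16). The interval of internal fragments lay below that of either end, and a change of scaling moves all positions by 1 factor and leaves their order as it is. Without Snora57 the internal ratio was 3.49 (2.81 to 4.36), without Snora73a and Snora73b 2.98 (2.44 to 3.65) and without Snora16a 2.59 (2.16 to 3.12). With ends that had to fall on the annotated base (0 nt) the internal ratio was 5.14, and with 5 nt allowed 2.78, against 31.5 and 24.4 at the 3′ end.

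**Figure D2:**
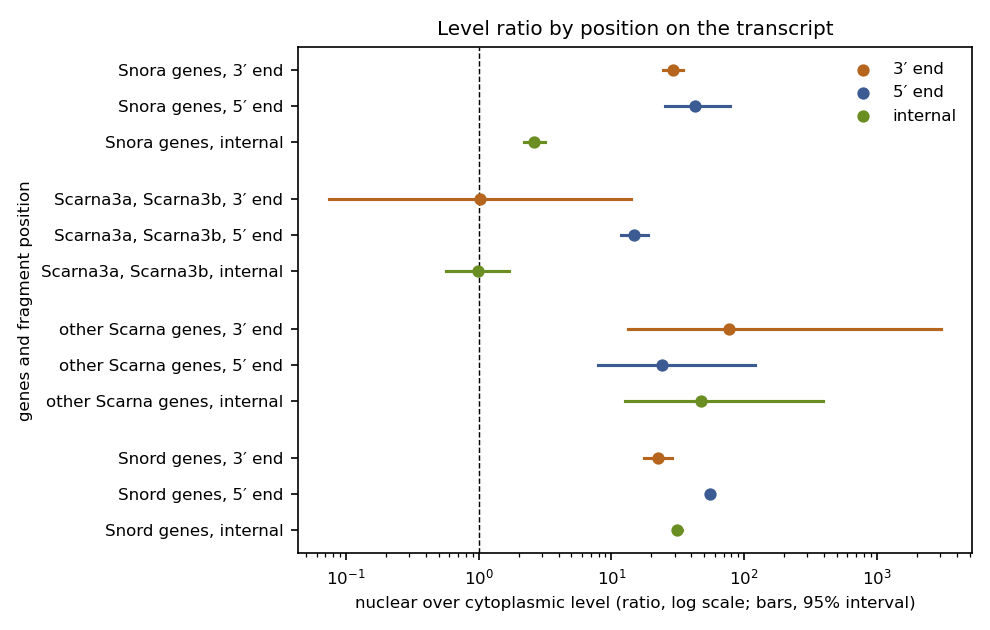
Ratio of the nuclear to the cytoplasmic level (log axis) of fragments at the 3′ end (orange), 5′ end (blue) and inside (green) of Snora genes, Scarna3a with Scarna3b, the other Scarna genes and Snord genes. Points are ratios of summed reads of 1 library each, bars are 95% counting intervals and the dashed line is a ratio of 1; internal fragments of Snora genes (2.63) and of the Scarna3 pair (0.987) lie left of their end fragments, while those of Snord genes lie at 31.4.

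Single genes had fewer reads behind this comparison. Of the 14 members with at least 50 reads, 13 had 5 or more internal reads. In 8 of these the interval of the internal ratio lay below that of the end ratio, and these were Scarna3a, Scarna3b, Snora61, Snora81, Snora7a, Snora57, Snora73a and Snora64. In the other 5, with 6 to 15 internal reads each, the intervals were not separated, which is not a test of a difference. Snora24 went the other way, with an internal log2 ratio of 3.73, on 6 and 0 reads, against 3.40 at its ends. Snora73a had 33 nuclear and 33 cytoplasmic internal reads, against 129 and 1 at its ends. Snora57 had 54 and 57 internal reads, against 95 and 4 at its ends. Both genes were therefore near even inside and mostly nuclear at their ends, on the RPM scale. In Snora81, by contrast, internal fragments had 80 and 10 reads, and end fragments 215 and 4.

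The dominant end differed between members. A gene was called dominated by a position that held more than 50% of its nuclear reads, and by that measure 8 of the 14 members were 3′ dominated, 6 were 5′ dominated and 0 were internal. The 3′ dominated genes were Snora16a (99.2%), Snora61 (98.5%), Snora24 (98.4%), Snora20 (97.2%), Snora21 (90.2%), Snora81 (65.1%), Snora57 (63.8%) and Scarna10 (53.6%). The 5′ dominated genes were Scarna3a (97.6%), Scarna3b (97.1%), Snora7a (93.9%), Snora62 (91.4%), Snora64 (63.0%) and Snora73a (55.6%). Of the 35 members with at least 10 reads, 12 were 3′ dominated, 11 were 5′ dominated and 9 were mostly internal. Averaged over the 11 Snora genes with equal weight, 60.3% of reads were at the 3′ end, 28.4% at the 5′ end and 11.3% internal.

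In some genes 1 end of the fragments was sharp. Of the nuclear Snora16a reads 93.7% stopped at nt 136, the annotated last base, and 66.0% began at nt 112. Of those of Snora24, 96.1% stopped at nt 130, the last base, and 36.2% began at nt 108. Snora61 reads stopped at its last base, nt 130, in 83.6% and began at nt 106 in 52.3%. For Snora7a 92.4% began at nt 1, and for Scarna3a 85.8% began at nt 2. In these 5 genes the end shared with the full-length RNA was the more uniform of the fragment's ends, among the reads counted. Reads had to match within the annotated transcript over their full length, so reads that run past its ends were left out. Part of that uniformity can come from this limit, which does not hold for the inner end. Other genes were more spread out. The commonest start and the commonest end held 16.8% and 38.9% of the nuclear reads of Snora57, 21.4% and 45.5% of those of Scarna10, 40.1% and 29.0% of those of Snora73a, and 45.7% and 23.9% of those of Snora64.

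**Figure D3:**
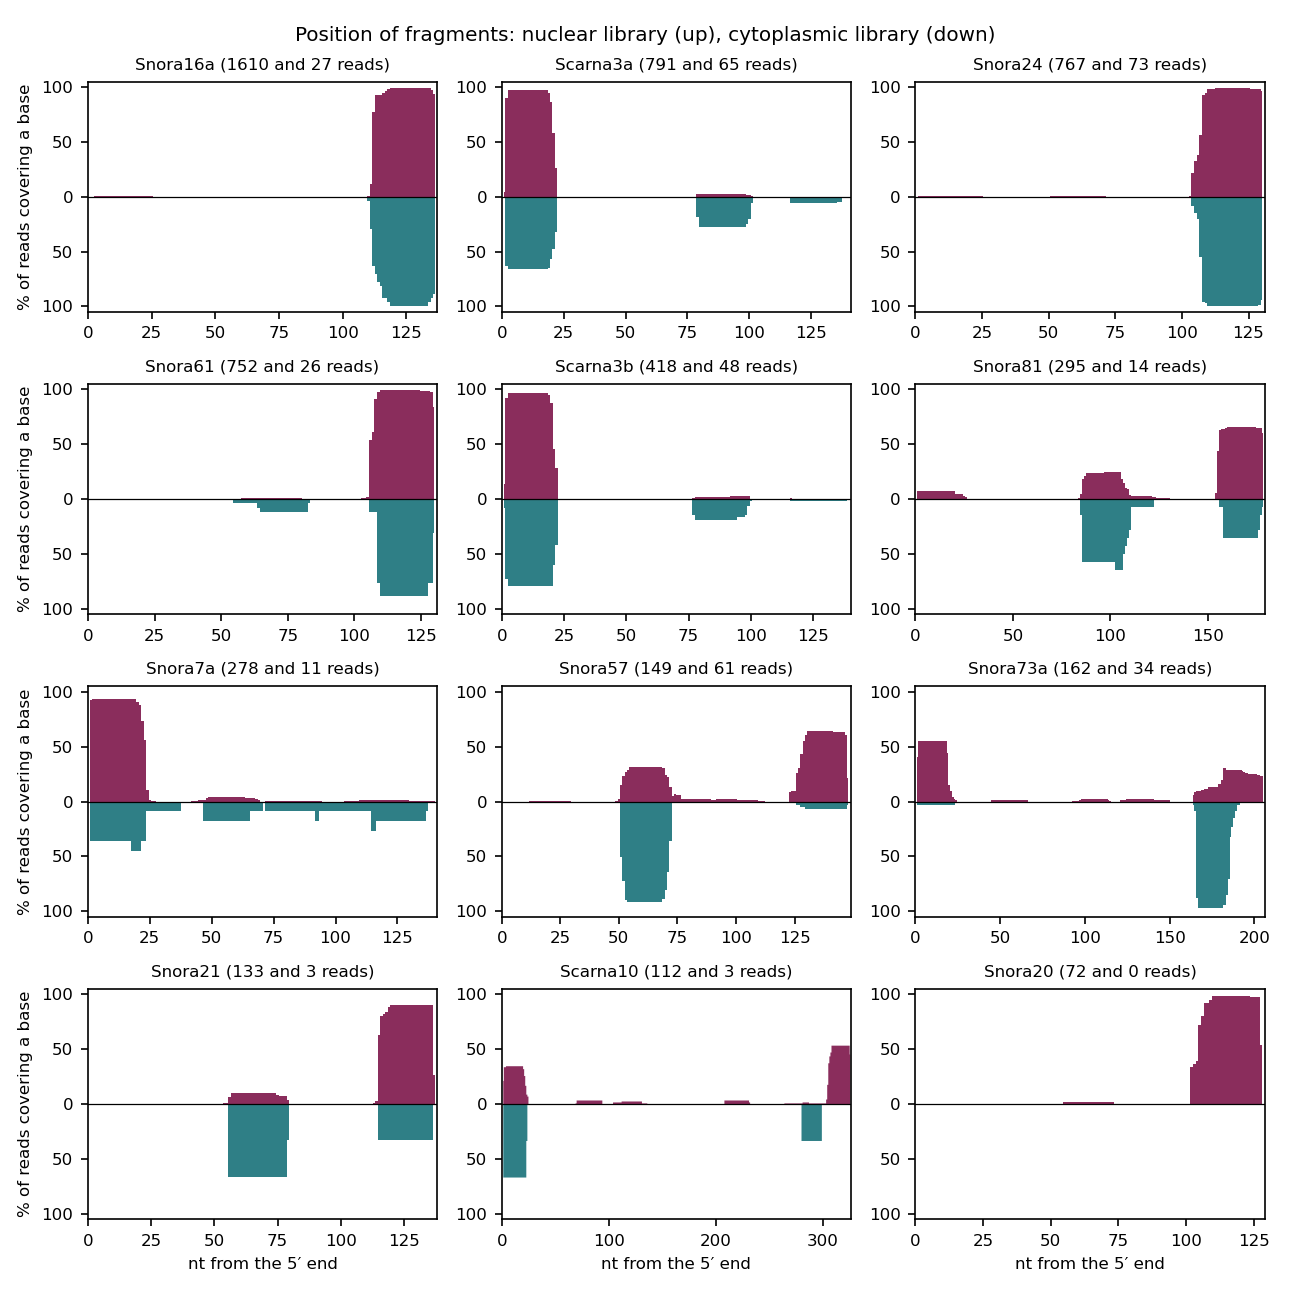
Coverage along the 12 genes with most reads, as the share of the gene's reads that cover each base (vertical axis, %) against the distance from the annotated 5′ end (nt), nuclear upwards and cytoplasmic downwards. Snora16a, Snora24 and Snora61 are covered at the 3′ end in both libraries, Scarna3a and Scarna3b at the 5′ end, and Snora57 and Snora73a are covered at an end in the nuclear library and inside in the cytoplasmic library.

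Fragments of 1 gene whose start positions lay within 3 nt of each other were joined into groups, and 44 groups had at least 10 reads. Of 31 groups at an end, 30 were higher in the nuclear library by the rule above without its minimum of reads, and their median log2 ratio was 4.89 (1.09 to 7.17). Of 13 internal groups, 8 were higher and 5 were neither, with a median log2 ratio of 2.46 (-0.54 to 6.05). A log2 ratio below 0 was found in 2 internal groups and in 0 end groups. The groups with few reads have wide intervals, and their ratios order themselves partly by depth, since the pseudocount caps the ratio of a group without cytoplasmic reads. A group could also reach 10 reads on its nuclear reads alone, which favours a call of higher. Of all small RNA entries with at least 10 reads 37.8% were called higher, and no such share was computed over fragment groups.

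The 5 internal groups that were neither higher nor lower belong to Snora57, Snora73a, Snora41, Scarna3a and Scarna3b. The leading sequences of 3 of them follow, with capitals on the ACA box that the Snora41 fragment reaches. For Snora73a the sequence with most reads over both libraries comes first and the one with most cytoplasmic reads next.
Snora57: acggaggtagaagaaagggctc
Snora73a, nt 164 to 181: tgtggaccatgactgagg
Snora73a, nt 166 to 185: tggaccatgactgaggagac
Snora41: ggaggattatgtgtgacagACA
The Snora57 group, nt 49 to 77, had 47 nuclear and 56 cytoplasmic reads, a ratio of 0.857 (0.569 to 1.29). The Snora73a group, nt 164 to 196, had 22 and 33 reads, a ratio of 0.680 (0.378 to 1.20). Within it the sequence of nt 164 to 181 had 10 nuclear reads and 1 cytoplasmic read, and that of nt 166 to 185, which Snora73b holds as well, had 0 and 10. The latter was chosen for its cytoplasmic reads, so its contrast follows in part from the choice. The group held 19 sequences, and the others are not given here. The Snora41 group, nt 102 to 129, had 23 and 20 reads, a ratio of 1.17 (0.616 to 2.25). Snora41 (chr1:63179004-63179135, within an intron of Eef1b2, which encodes a translation elongation factor) had 29 and 20 reads in all, a ratio of 1.48 (0.809 to 2.76), which held 1. Its leading fragment stops 3 nt before the annotated end and was internal only by the limit of 2 nt. With 5 nt allowed it counts as a 3′ end fragment, and the cytoplasmic Snora reads of that end rise from 133 to 161. No difference between the libraries was detectable for these 3 groups at this depth.

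Other internal groups were mostly nuclear. The Snora81 group, nt 83 to 112, had 71 and 8 reads, a ratio of 9.06 (4.36 to 21.8). The Snora65 group, nt 79 to 104, had 32 and 0 reads. Its ratio at the floor of 3 reads was 10.9, with a lower interval bound of 3.41. The leading sequence of 5 of the 13 internal groups holds the H box letters of its gene, and these groups belong to Snora57, Snora81, Snora21, Snora75 and Snora7a. Groups with the letters thus included both the near even group of Snora57 and groups with more nuclear reads.

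**Figure D4:**
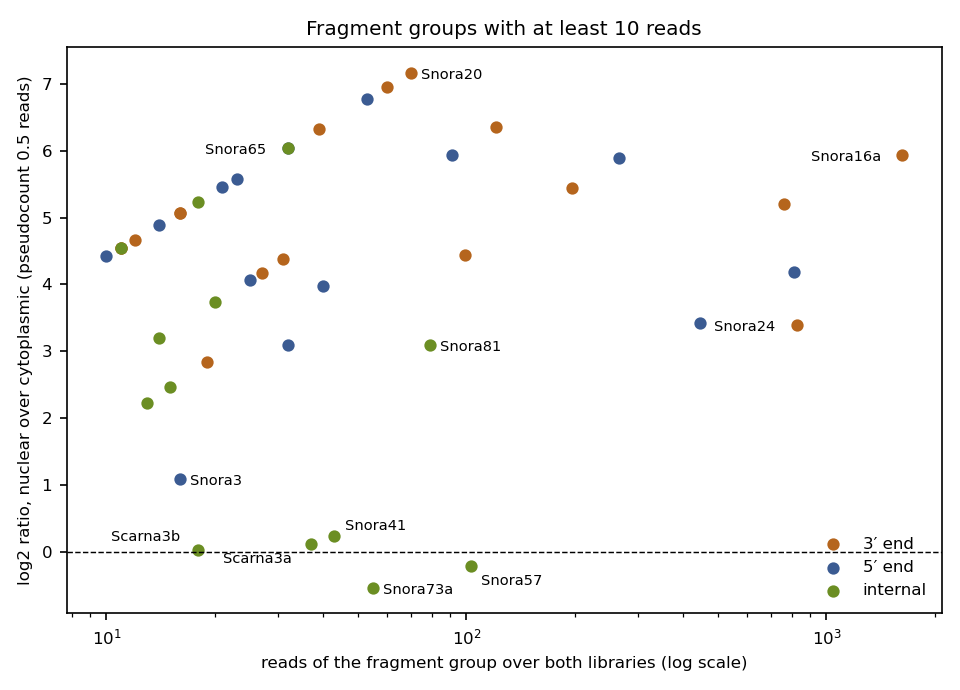
Log2 ratio of the nuclear to the cytoplasmic level (pseudocount of 0.5 reads) of each of the 44 fragment groups against its reads over both libraries (log axis), at the 3′ end (orange), 5′ end (blue) or inside (green) of the gene. The 31 end groups lie between 1.09 and 7.17, and the 5 internal groups near the dashed line at 0 belong to Snora57, Snora73a, Snora41, Scarna3a and Scarna3b.

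The internal groups of the Scarna3 pair overlap annotated miRNA hairpins. Mir1843b overlaps the 3′ portion of Scarna3a, and Mir1843a lies in that of Scarna3b. The leading internal fragments and the RefSeq mature 5p sequences (GRCm38.p6), with capitals on the miRNA seed at bases 2 to 8, compare as follows.
Scarna3a: catggaggtctctgtctgactt
miR-1843b-5p: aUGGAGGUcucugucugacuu
Scarna3b: atatggaggtctctgtctgactt
miR-1843a-5p: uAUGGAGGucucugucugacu
The mature miR-1843b-5p begins at nt 80 of Scarna3a, and the leading fragment begins 1 base before it. The Scarna3a group, nt 78 to 101, had 19 nuclear and 18 cytoplasmic reads, a ratio of 1.08 (0.535 to 2.18). The Scarna3b group, nt 77 to 100, had 9 and 9 reads, a ratio of 1.02 (0.359 to 2.90). The 5′ end fragments of the same genes had 1178 and 81 reads, a ratio of 14.8 (11.8 to 18.8), whose interval lay above that of all their internal fragments at 0.987 (0.571 to 1.70). For comparison, 215 miRNA arms had a median log2 ratio of -0.60.

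Without sequences inside a miRNA hairpin, internal fragments of all members had a ratio of 3.10 (2.60 to 3.72), against 2.83 (2.40 to 3.34) with them. The Scarna sum rose to a ratio of 16.6 when they were left out. In the other Scarna genes internal fragments were not low, with 92 nuclear and 2 cytoplasmic reads and a ratio of 47.0 (12.6 to 393). Annotated hairpins also overlapped fragment groups at the 5′ end. There Snora34 had 21 nuclear and no cytoplasmic read inside Mir1291, and Snora81 had 23 and 0 inside Gm47309 and Gm49346. The 5′ group of Snora3 had 5 and 3 reads inside Gm47277 and was neither higher nor lower. A link between hairpin overlap and level was not tested.

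C/D box snoRNAs divided differently over their length. Of nuclear Snord reads 78% were at the 5′ end, 20.5% internal and 1.42% at the 3′ end. This rests in part on Snord14c, without which 43.8% were at the 5′ end, 52.6% internal and 3.61% at the 3′ end. Of 50 Snord genes with at least 50 reads, 21 were 5′ dominated, 24 internal and 4 3′ dominated, against 4, 0 and 7 of the 11 Snora genes. These counts use the limit of 2 nt, on which the internal Snord share depends. With 5 nt allowed 9.61% of nuclear Snord reads were internal and 87.7% at the 5′ end, and with 0 nt 27.2% and 71.9%. The genes were not counted again with these limits. Internal Snord fragments had a ratio of 31.4 (29.2 to 33.8), above that of internal Snora fragments, while the ratios at the 3′ end, 22.4 (17.7 to 28.7) and 29.1 (24.5 to 34.9), had overlapping intervals.

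Nuclear Snora fragments were by reads longer than most listed reads, with a median of 24 nt against 22 nt. The cytoplasmic Snora reads had a median of 22 nt, as had all listed reads of that library. Fragments of 23 to 27 nt made up 76.0% of nuclear and 42.4% of cytoplasmic Snora reads, against 28.1% and 28.2% of all listed reads. The commonest nuclear length was 25 nt (30.6%), and without Snora16a it was 23 nt, with 67.6% between 23 and 27 nt. All listed reads peaked at 22 nt, the length of miRNAs, with 27.6% and 38.8%. By position, 85.8% of nuclear Snora reads at the 3′ end were of 23 to 27 nt, but 33.5% of the internal reads. Over all members the nuclear share of 23 to 27 nt was 59.7%, and 12.3% over sequences with no match to any other gene. That limit leaves out sequences inside host exons and keeps those of Scarna3a and Scarna3b, of which 0.579% of nuclear reads were of these lengths. With no match to another small RNA gene the share over all members was 62.1%. Neither share was computed for Snora genes alone.

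The Scarna sum was shorter through Scarna3a and Scarna3b. Of nuclear Scarna reads 5.87% and of cytoplasmic ones 7.56% were of 23 to 27 nt, and the commonest lengths were 20 and 21 nt. For Scarna3a and Scarna3b the nuclear share was 0.579%, and for the other 7 Scarna genes it was 32.8% (26.8 to 39.1), with 21 nt the commonest. Nuclear Snord reads were of 23 to 27 nt in 24.4%, with 18 nt, the shortest length listed, the commonest. The longest member fragment was 29 nt, so the members did not approach the upper limit of 39 nt, whereas fragments under 18 nt are outside the table.

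**Figure D5:**
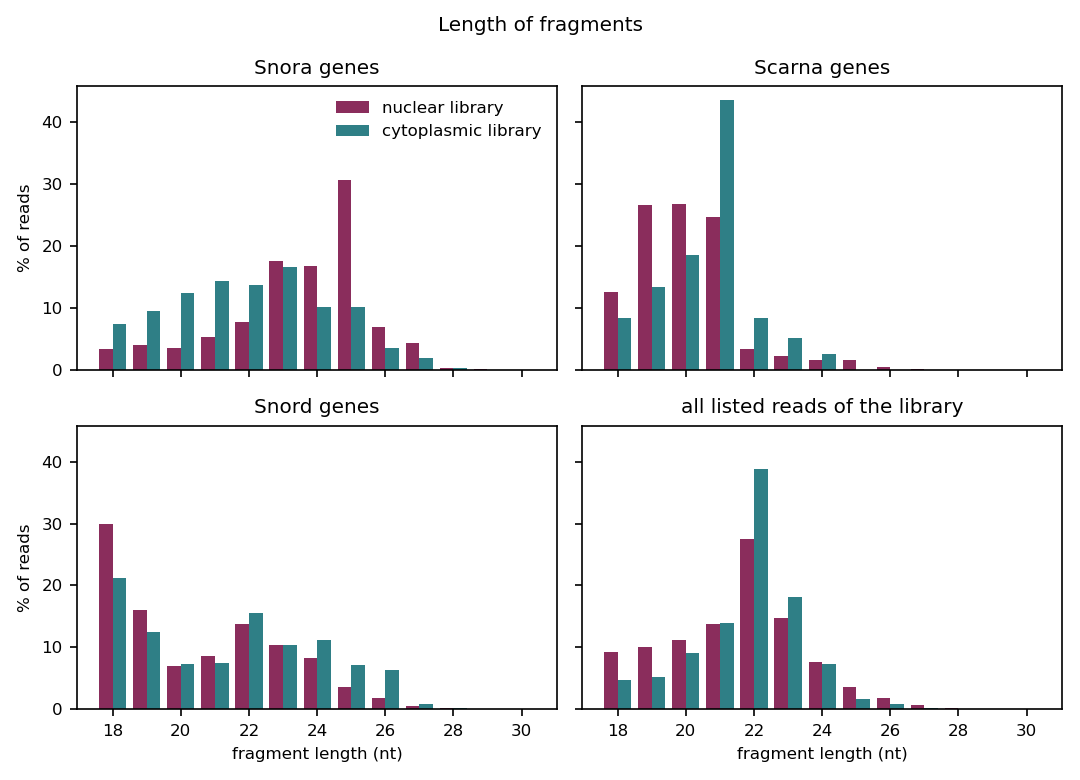
Share of reads (vertical axis, %) by fragment length (horizontal axis, nt) for Snora genes, Scarna genes, Snord genes and all listed reads, nuclear (purple) and cytoplasmic (teal), drawn from 18 to 30 nt. Nuclear Snora reads peak at 25 nt (30.6%), Scarna reads at 20 and 21 nt, and all listed reads at 22 nt.

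The transcripts of the proteins that build and mature these RNAs left few fragments. A list of 14 genes held the core proteins Dkc1, Gar1, Nhp2 and Nop10, the assembly factors Naf1 and Shq1, the Cajal body factors Wrap53, Coil and Nolc1, the cap and tail enzymes Tgs1, Parn and Tent4b, and the telomerase components Tert and Terc, of which Terc is itself an RNA with an H/ACA domain. Of these 10 had a read, 0 reached 50 reads, and all together had 30 nuclear and 10 cytoplasmic reads. Tgs1, the cap hypermethylase, had most, with 9 and 2. Dkc1, Naf1, Tert and Terc had no read, which allows up to 3 reads of their fragments (1.5 RPM in the nuclear library). Fragment reads do not measure the level of the mRNAs.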

How the data were processed

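Small RNA libraries of a nuclear pellet and a cytoplasmic fraction were compared, 1 library each, taken from the table's columns by their last letter (N, C). The authors deposited a table of sequences with values in RPM, reads of a sequence scaled to a common total of listed reads. Per the submitters' processing notes CASAVA and mm10 were used. Adapter trimming, filters and any alignment were not given in the sources used here. All RPM values above 0 (100.0%) were whole multiples of 1 read within 0.1 read, and these reads were recovered.

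Sequences were matched over their full length to GENCODE vM21 (GRCm38) in Python 3.11.15 with numba 0.67.0, and each counted once, under a member before any other gene. Sequences of both Snora73 genes count under Snora73a, and those of both Scarna3 genes under Scarna3a. Cytosolic tRNAs were not matched. Scaling factors came from edgeR 4.0.16 and DESeq2 1.42.0, and scripts were tested on simulated data. edgeR's quasi-likelihood test could not be fitted without residual degrees of freedom.

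The members and lists were chosen with earlier results of these data known. Named genes are the 12 members with most reads, the 3 largest and 3 smallest ratios among members with at least 50 reads, scaRNAs with at least 10 reads and the Snora73 pair. Snora41, Snora44, Snora65 and other genes named for internal fragments, hairpins or hosts were chosen after their values were seen.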

Additional observations from a re-analysis of the deposited data

How the results depend on the processing

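Other scalings moved the median log2 ratio of all entries by -0.48 (TMM), -0.58 (median of ratios) and 0.89 (scaling to miRNA reads). The Snora ratio of 15.6 became 11.2, 10.4 and 29.0, the Scarna ratio of 12.4 became 8.90, 8.28 and 23.1, and the share of all entries called higher became 32.6%, 31% and 62.7%. That share was 37.8% with a minimum of 10 reads and 14.3% with 1 read, and the number of members called higher was 33 of 35 and 37 of 47. Only sequences with no match to another gene, hosts included, left 5 members, all higher, with ratios of 12.2 (Snora) and 15.8 (Scarna), and with no match to another small RNA gene the ratios were 21.9 and 16.5. The reads of a gene inside a host exon or with copies are lost there by construction. Counting distinct sequences gave ratios of 1.61 and 1.46 and 0 of 3 members higher, and turned the log2 ratios of Snora16a (-0.15), Scarna3a (-1.0), Snora24 (-0.08), Scarna3b (-1.15), Snora57 (-0.04) and Snora64 (-0.04). Snora81 turned to -1.56 without sequences that match another small RNA gene, on 1 read. Leaving out the top sequence of each member gave a Snora ratio of 10.9, leaving out Snora16a 11.4 and Snora57 18.8, and leaving out miRNA hairpins a Scarna ratio of 16.6.

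The nuclear share of member reads at the 3′ end, 61.8%, was 7.99% with no match to another gene, 31.4% over distinct sequences, 53.8% without top sequences, 51.2% with equal weights and 48.9% without Snora16a. The cytoplasmic share, 31.4%, was 1.71%, 23.8%, 24.9% and 26.6% under the same settings up to equal weights, and 44.7% with no match to another small RNA gene. The nuclear share of 23 to 27 nt, 59.7%, was 12.3%, 41.6%, 49.0%, 48.6% and 48.4% in the same order, and 62.1% with no match to another small RNA gene. The cytoplasmic share, 32.8%, was 8.55% with no match to another gene, 26.6% without top sequences and 42.9% with no match to another small RNA gene. Of the alternatives for named genes, 173 kept direction and call, 12 lost the call and 7 reversed. Alternatives that leave out genes, sequences in hairpins or sequences shared with small RNA genes, and other end distances, were chosen after seeing the data. No paired analysis was possible because each fraction has 1 library, so the groups share fewer than 2 replicate numbers. Depth limits genes with few cytoplasmic reads, for which 1 read is 0.49 RPM.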

Other observations

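Sequences that match a member only after 1 to 3 bases are removed from their 3′ end were outside all sums above. There were 102 such sequences with 134 nuclear and 28 cytoplasmic reads, a ratio of 4.88 (3.23 to 7.63). Those whose matched part stops at the annotated 3′ end of the gene had 60 and 4 reads, a ratio of 15.3 (5.68 to 58.0), and the others had 74 and 24 reads, a ratio of 3.15 (1.96 to 5.22). A single added A was found in 38 nuclear and 12 cytoplasmic reads, a T in 29 and 8, a G in 13 and 1 and a C in 11 and 0. Snora17, whose annotated transcript has no ACA at 3 bases from its end, had 11 and 1 such reads, beside 8 and 3 exact reads. Extra bases from the genome next to an annotated end, added bases and read errors cannot be told apart from the sequences alone, and this was not tested.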
